A study of Mus musculus with 13 samples.

Results

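The comparison orders mouse haematopoietic stem cells (HSCs) by how many blood lineages their clone still made, from multilineage reconstitution (MUL-HSC, score 0) through PEM-restricted (PEM-HSC, score 1) to P-restricted reconstitution (PLT-HSC, score 2). All 13 libraries of the series entered it: 4 MUL-HSC, 6 PEM-HSC and 3 PLT-HSC. The score was a single numeric term fitted to each of 12536 genes, and the genes of interest were those with a slope along the score and a PEM-HSC mean between the means of the other groups. Of the 12536 genes, 11 passed (0.0877%), at an adjusted p under 0.05 in edgeR's quasi-likelihood test. In all 11 the PEM-HSC mean lay between the others. Selection on the slope favours that order, so it is no separate sign of a graded change. Rising genes numbered 6 (0.0479%) and falling genes 5 (0.0399%).

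Each library was made from 100 cells of C57BL/6 mice. A single Vwf+ HSC was transplanted per recipient, blood output was followed over 16 weeks, and the HSCs descended from it were then sorted again from the recipient's bone marrow. All 3 groups passed the same gate, LSK Flt3- CD150+ CD48- CD45.2+ Gata1-, so all descend from a Vwf+ cell and all lack Gata1+ cells as far as the sort removed them. The labels give the groups' output patterns as the only difference between them. They do not say that libraries of a group came from separate recipients. The p-values therefore cover only the scatter of these libraries, part of which may be technical. The labels also do not spell out the letters P and PEM.

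HSCs are rare marrow cells that renew themselves and give rise to all blood lineages, yet single HSCs differ in which lineages they feed. Some carry transcripts of megakaryocytes, the platelet-forming cells, while still being stem cells, and HSCs with this bias become more frequent with age in mice. Surface and cell cycle genes also change as HSCs become multipotent progenitors, which divide more and hold less capacity for self-renewal.

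MUL-HSC libraries held 16371921 to 41367057 gene counts, PEM-HSC libraries 22913695 to 28013676 and PLT-HSC libraries 29017378 to 32437607. Levels are given as CPM, which sets each count against its library's TMM-scaled size. Over the 13 libraries, the two-sided exact permutation p of an association with the score was 0.486 for total counts, 0.112 for detected genes and 0.982 for the spike-in share, and 0.73, 0.335 and 0.982 after Benjamini-Hochberg adjustment over these 3. Libraries of a group differed widely: the biological coefficient of variation was 0.616 at the median gene. PLT-HSC replicate 3 and MUL-HSC replicate 3 stood apart from the rest of their groups in cell cycle genes. The mean log2 CPM of a list of mitosis genes was 5.37 in the former, against -0.68 and 1.2 in the other PLT-HSC libraries, and 1.02 in the latter, against 4.71 to 5.26 in the other MUL-HSC libraries. Because each library is a bulk sample, fewer cells of a type and less RNA per cell cannot be told apart.

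A slope is the log2 change per step of the score, so the change from MUL-HSC to PLT-HSC spans 2 steps. The SE of a slope or step was worked back from edgeR's test, as the absolute log2 change over the square root of its F statistic. The position of PEM-HSC is given as a share of the way from the MUL-HSC mean (0) to the PLT-HSC mean (1) on the log2 CPM scale. A PEM-HSC mean between the others was common by itself: 5370 of all tested genes had one (42.8%), 2827 in rising order (22.6%) and 2543 in falling order (20.3%). At an unadjusted p under 0.05 in edgeR, 723 genes had a slope (5.77%), 376 upward (3%) and 347 downward (2.77%). Of these 723, 668 had the PEM-HSC mean between (5.33% of all tested genes), so choosing genes by slope nearly fixes that order. PLT-HSC and MUL-HSC libraries did not overlap in 826 genes (6.59%), 459 rising (3.66%) and 367 falling (2.93%). All 11 called genes are among these, having been called on a contrast of the same libraries. Libraries of all 3 groups in full order without overlap were rare, with 2 rising genes (0.016%) and 4 falling ones (0.0319%).

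The bases upstream of the annotated start are printed for the first pair of genes in each direction, to show the sequence around genes that moved in opposite directions along the order. They are the 250 bases before the start in RefSeq on build GRCm38.p6. Ctnnal1 lies at chr4:56865212-56865461 on the minus strand, Mef2c at chr13:83503784-83504033 on the plus strand (1 of its listed starts), Otos at chr1:92648842-92649091 on the minus strand and Ramp1 at chr1:91179572-91179821 on the plus strand. The bases after the RefSeq start of Ctnnal1 were not found near the start of a GENCODE M21 transcript of the gene, while those of Mef2c, Otos and Ramp1 were. The Ctnnal1 window may therefore not adjoin the start in that annotation. The window of Ppp4r4 overlaps an annotated exon and is not printed. Capitals mark CG pairs and, in Mef2c, the single match to a searched motif.
Ctnnal1: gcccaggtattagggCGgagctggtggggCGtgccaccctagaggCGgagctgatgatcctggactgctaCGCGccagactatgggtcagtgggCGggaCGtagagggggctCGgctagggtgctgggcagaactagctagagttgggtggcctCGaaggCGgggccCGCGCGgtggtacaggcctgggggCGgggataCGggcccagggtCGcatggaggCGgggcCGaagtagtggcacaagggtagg
Mef2c: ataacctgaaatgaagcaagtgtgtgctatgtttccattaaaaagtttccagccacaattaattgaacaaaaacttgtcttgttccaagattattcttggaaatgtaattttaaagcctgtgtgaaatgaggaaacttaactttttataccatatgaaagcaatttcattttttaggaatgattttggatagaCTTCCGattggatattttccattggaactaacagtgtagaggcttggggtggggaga
Otos: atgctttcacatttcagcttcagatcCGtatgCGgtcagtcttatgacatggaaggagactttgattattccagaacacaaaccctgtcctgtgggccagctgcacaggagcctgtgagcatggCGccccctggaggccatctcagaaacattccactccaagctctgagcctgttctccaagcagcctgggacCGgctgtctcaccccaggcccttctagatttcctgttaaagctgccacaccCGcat
Ramp1: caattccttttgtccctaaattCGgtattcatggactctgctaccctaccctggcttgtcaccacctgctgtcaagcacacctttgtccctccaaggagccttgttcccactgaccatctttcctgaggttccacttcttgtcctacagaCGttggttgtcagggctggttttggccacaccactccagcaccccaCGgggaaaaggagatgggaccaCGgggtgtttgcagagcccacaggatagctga
Each sequence reads 5′ to 3′ on its gene's strand. The window of Ctnnal1 holds 18 CG pairs and 68.4% G or C, and 21.6% of 27025 RefSeq windows of this length hold as many CG pairs. That of Mef2c holds 1 pair and 33.6% G or C (91.7% of windows hold as many), that of Otos 5 pairs and 54% (55.5%), and that of Ramp1 4 pairs and 54% (61.9%). The median window has 6. Both strands were searched for the letters of 3 motifs. The GATA motif was taken as AGATAA with its variant TGATAA, and further as AGATAG with its variant TGATAG. The ETS motif was AGGAAG with its variant CGGAAG, and the RUNX motif was TGTGGT. No matches overlapped in the printed windows. The capital letters CTTCCG in Mef2c are the reverse complement of CGGAAG, 57 to 52 bases before the start, and the other windows printed held none of the motifs. Of the 11 called genes 9 had a window, of which 1 (Nrg4) held GATA letters, 4 (Gm5111, Lat, Mef2c and Phf11d) ETS letters and 0 RUNX letters, while 27.1%, 39% and 14.2% of all windows held them. Vwf and Serpinb1a have no entry.

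Among the rising genes, Ctnnal1 was the one whose libraries were in full order. Ctnnal1, which encodes alpha-catulin and marks mouse HSCs, stood at 3.78, 10.3, 12.5 and 15.5 CPM in MUL-HSC. It ran from 16.1 to 53.7 CPM with a median of 30.6 in PEM-HSC, and stood at 86.6, 62.8 and 91 CPM in PLT-HSC. PEM-HSC libraries all sat above those of MUL-HSC and below those of PLT-HSC. Group means were 10.5 ± 4.96 (SD, n = 4), 32.9 ± 12.9 (n = 6) and 80.1 ± 15.2 CPM (n = 3), a 7.62-fold rise from end to end. The slope was 1.48 (SE 0.25, edgeR adjusted p = 0.0253). PEM-HSC sat 0.558 of the way, with a first step of 1.65 (SE 0.44) and a second of 1.29 (SE 0.44) on the log2 scale.

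Mef2c, a MADS-box transcription factor used in lymphoid and megakaryocytic cells, rose in nearly even steps. It stood at 153, 197, 128 and 130 CPM in MUL-HSC, between 166 and 317 CPM in PEM-HSC (median 250), and at 440, 375 and 334 CPM in PLT-HSC. All PLT-HSC libraries lay above all others, and MUL-HSC replicate 2 overlapped the lowest PEM-HSC library. The means were 152 ± 31.9, 246 ± 53.3 and 383 ± 53.6 CPM, a 2.52-fold rise, and the slope was 0.67 (SE 0.11, edgeR adjusted p = 0.0253). The first step was 0.69 (SE 0.20), the second 0.64 (SE 0.21), and PEM-HSC sat at 0.508.

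Vwf encodes von Willebrand factor, a platelet and endothelial clotting protein, and marks platelet-biased HSCs. It was at 5.08, 9.85, 13.4 and 12.2 CPM in MUL-HSC, at 31.8 to 114 CPM (median 81) in PEM-HSC and at 106, 114 and 181 CPM in PLT-HSC. MUL-HSC libraries lay apart below all others, while PEM-HSC and PLT-HSC libraries overlapped. The slope was 1.96 (SE 0.33, edgeR adjusted p = 0.0253), but the steps were uneven, at 2.94 (SE 0.41) and then 0.78 (SE 0.39), with PEM-HSC at 0.77 of the way. The test of a departure from even steps gave an unadjusted p of 0.00321 for Vwf in edgeR, and no gene passed that test after adjustment. All 13 libraries come from progeny of Vwf+ cells, so the low level in MUL-HSC was measured after 16 weeks in the recipient and not at the time of that selection.

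Nrg4, which encodes the EGF-family ligand neuregulin 4, was at 3.59, 9.89, 9.78 and 36.3 CPM in MUL-HSC. It ran from 15.6 to 134 CPM (median 76.8) in PEM-HSC and was at 204, 342 and 142 CPM in PLT-HSC. PLT-HSC libraries were the highest without overlap, and 1 MUL-HSC library lay above the lowest PEM-HSC library. The slope was 2.0 (SE 0.35, edgeR adjusted p = 0.032), the end-to-end rise 15.4-fold and the position 0.6. Phf11d, an interferon-inducible gene of the PHD finger family, was at 68.6, 40.6, 84.7 and 55 CPM in MUL-HSC, 132 to 246 CPM (median 178) in PEM-HSC and then 287, 386 and 142 CPM in PLT-HSC. All MUL-HSC libraries were lowest, and PLT-HSC replicate 3 fell within the PEM-HSC range. Its slope was 1.10 (SE 0.20; edgeR adjusted p = 0.032) with PEM-HSC at 0.777, and the first step of 1.59 (SE 0.29) was larger than the second of 0.54 (SE 0.30; unadjusted p = 0.0432 for the difference in edgeR). Phf11d has close family copies whose reads may have been shared.

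Ppp4r4, a regulatory subunit of protein phosphatase 4, passed the test but was carried by few libraries. It had 0 counts in all 4 MUL-HSC libraries. In PEM-HSC it was at 2.02, 0.871 and 3.54 CPM in replicates 1, 4 and 6 and at 0 in the other 3, and in PLT-HSC it was at 126, 37.4 and 1.9 CPM. PLT-HSC replicate 3 therefore lay within the PEM-HSC range, and PEM-HSC sat 0.288 of the way. PLT-HSC was at least 1815-fold higher than MUL-HSC, taking 3 counts over the MUL-HSC libraries as the floor, which covers counting error only. The fitted slope of 6.22 (SE 1.02, edgeR adjusted p = 0.0253) depends on the prior count and is no bound. Its SE was worked back from that slope and so gives no measure of its precision.

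**Figure D1:**
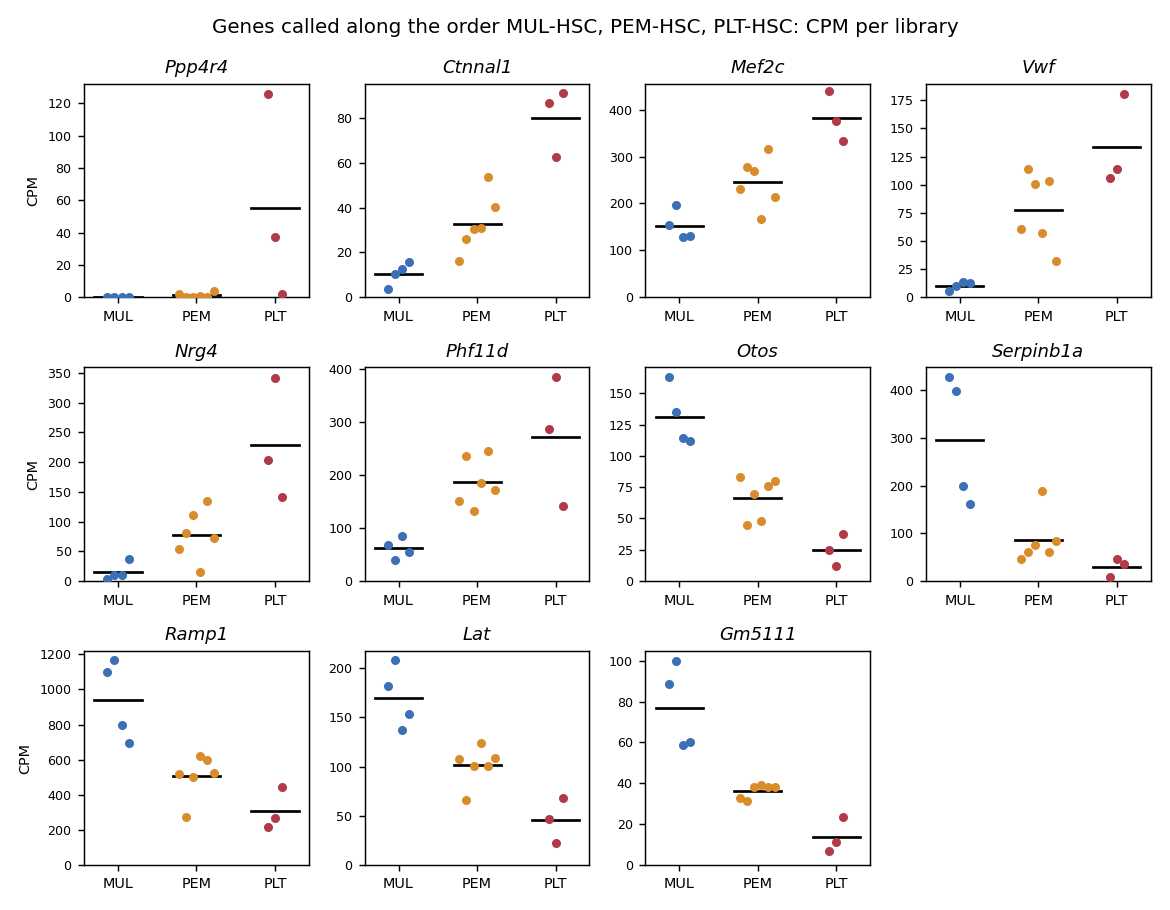
CPM in each library (vertical axis, linear, starting at 0) of the 11 genes called along the order, with 1 point per library for MUL-HSC (4), PEM-HSC (6) and PLT-HSC (3) and a horizontal bar at the group mean. PLT-HSC and MUL-HSC points do not overlap in any of the 11, and Ctnnal1, Otos and Gm5111 are ordered over all 3 groups without overlap.

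Otos was among the falling genes in full order. It encodes otospiralin, a small secreted protein known from the inner ear. Its levels were 163, 135, 114 and 112 CPM in MUL-HSC, 44.7 to 82.9 CPM (median 72.5) in PEM-HSC and then 24.9, 11.8 and 37.7 CPM in PLT-HSC, with no overlap between any groups. The means were 131 ± 23.8 (SD, n = 4), 66.7 ± 16.5 (n = 6) and 24.8 ± 12.97 CPM (n = 3), and the slope was -1.18 (SE 0.19, edgeR adjusted p = 0.0253). The level fell 5.29-fold from end to end, with steps of -0.98 (SE 0.30) and -1.43 (SE 0.35) and PEM-HSC at 0.394.

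Serpinb1a, an inhibitor of neutrophil-type serine proteases, was at 427, 398, 200 and 161 CPM in MUL-HSC. In PEM-HSC it ran from 46.1 to 189 CPM (median 68.4), and in PLT-HSC it was at 7.63, 45.7 and 36.2 CPM. All PLT-HSC libraries were the lowest, and PEM-HSC replicate 4, the highest of its group, overlapped MUL-HSC. The fall was 9.95-fold from end to end, with a slope of -1.67 (SE 0.27, edgeR adjusted p = 0.0253) and PEM-HSC at 0.515. Serpinb1a also has close copies in the mouse genome whose reads may have been shared.

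Ramp1 encodes the membrane partner with which the receptor Calcrl binds calcitonin gene-related peptide. It was at 1100, 1170, 796 and 697 CPM in MUL-HSC, 271 to 618 CPM (median 522) in PEM-HSC and then 214, 268 and 442 CPM in PLT-HSC. MUL-HSC libraries lay apart above all others, and PEM-HSC and PLT-HSC overlapped. The slope was -0.81 (SE 0.14, edgeR adjusted p = 0.0253), a 3.06-fold fall, with steps of -0.90 (SE 0.24) and -0.71 (SE 0.27).

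Lat, an adaptor of T-cell receptor signalling and of the collagen receptor of platelets, fell as output narrowed towards P. It was at 182, 208, 137 and 153 CPM in MUL-HSC, 65.9 to 124 CPM (median 105) in PEM-HSC and then 47, 22 and 68.2 CPM in PLT-HSC. MUL-HSC libraries were the highest without overlap, and 1 PLT-HSC library lay just above the lowest PEM-HSC library. Its slope was -0.93 (SE 0.17, edgeR adjusted p = 0.0324), a 3.72-fold fall, and the second step of -1.15 (SE 0.31) was the larger one, after a first of -0.74 (SE 0.27). The fifth falling gene was Gm5111, a gene model of unknown function outside the naming rule, at group means of 76.9, 36.3 and 13.8 CPM without overlap (slope -1.23, SE 0.21, edgeR adjusted p = 0.0253).

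Whether the trend rested on 1 of its steps was asked in a fit with a term per group. For PEM-HSC against MUL-HSC, 1 gene passed (0.00798%), Vwf, with 744 at an unadjusted p under 0.05 (5.93%). DESeq2 called more genes at this first step than at the second. At an unadjusted p under 0.05 in DESeq2 the first step had 851 genes and the second 605. For PLT-HSC against PEM-HSC, 0 genes passed in edgeR (0%), with 467 at an unadjusted p under 0.05 (3.73%), 115 called by DESeq2 and 1 by limma voom. For a departure from even steps, 0 passed in edgeR (0%), with 492 at an unadjusted p under 0.05 (3.92%), 150 called by DESeq2 and 0 by limma voom. By the PEM-HSC position on mean log2 CPM, the first step was the larger in 7 of the 11 genes and the second in 4. The unadjusted edgeR p of the second step was under 0.05 in 9, all but Vwf (0.0602) and Phf11d (0.087). The 11 were chosen by a slope on the same libraries, which favours small p-values at either step, so the 9 cannot show that the second step holds by itself. PEM-HSC positions over the 11 ran from 0.288 for Ppp4r4 to 0.777 for Phf11d. For PLT-HSC against MUL-HSC alone, 6 genes passed (0.0479%), of which 5 are among the 11, and the other, Rdh10, missed the threshold along the score.

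**Figure D2:**
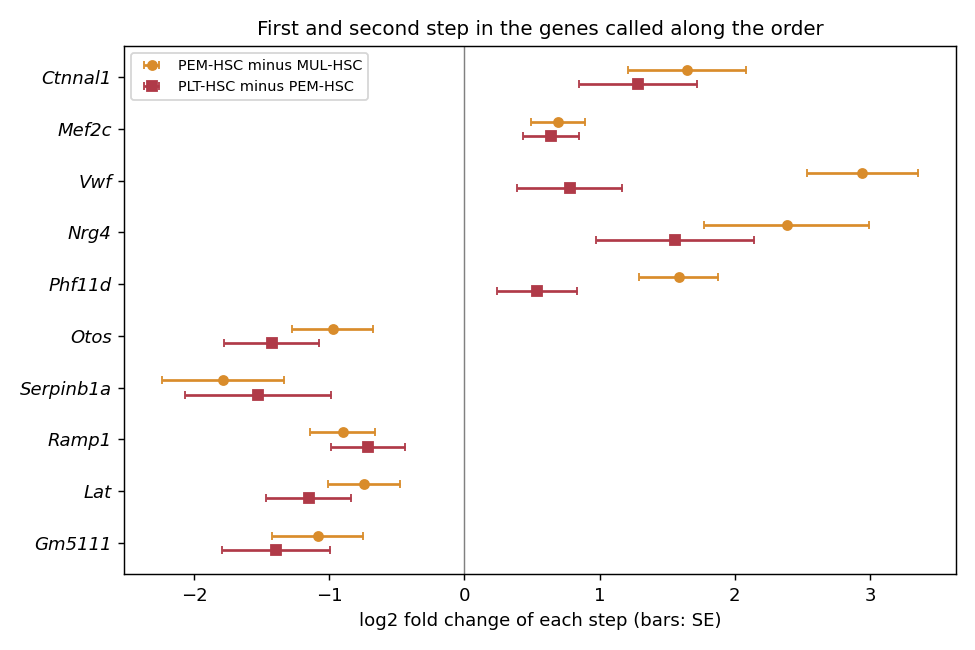
Log2 fold change of the first step (PEM-HSC minus MUL-HSC, circles) and the second step (PLT-HSC minus PEM-HSC, squares) for 10 of the 11 genes, with bars of 1 SE. Ppp4r4 is left out because all MUL-HSC libraries are at 0. Both steps have the same sign in each gene, and the first exceeds the second by more than their SE bars in Vwf and Phf11d.

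Genes next in rank did not pass. Rdh10, a retinol dehydrogenase of retinoic acid synthesis, was at 2.33, 1.41, 0.428 and 4.41 CPM in MUL-HSC, 8.99 to 90.1 CPM in PEM-HSC and then 188, 133 and 52.3 CPM in PLT-HSC, with a slope of 3.08 (SE 0.59, edgeR adjusted p = 0.0635) and a larger first step (unadjusted p = 0.00904 for the difference in edgeR). Mllt3, a regulator of HSC self-renewal, averaged 196, 424 and 608 CPM over the 3 groups in order, with a slope of 0.84 (edgeR adjusted p = 0.0696). On the falling side Tnfrsf18, the receptor GITR, averaged 143, 71.9 and 29.3 CPM (edgeR adjusted p = 0.0702), and Ctla2a, a cysteine protease inhibitor with a close copy, 1870, 343 and 200 CPM (adjusted p = 0.0758). Akr1c13, an aldo-keto reductase, averaged 284, 168 and 127 CPM (edgeR adjusted p = 0.0999). Rgs9, a regulator of G protein signalling, was at 3.26, 2.1, 0 and 6.75 CPM in MUL-HSC and at 0 in all PLT-HSC and all but 1 PEM-HSC library (edgeR adjusted p = 0.0908). MUL-HSC was at least 119-fold higher than PLT-HSC, with 3 counts over the PLT-HSC libraries as the floor. These genes had PEM-HSC between the other means as the naming rule required.

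Full order over all libraries also held for genes with weaker tests. Mylk, the myosin light chain kinase of contractile cells and platelets, was at 6.62, 0.606, 14.5 and 18.1 CPM in MUL-HSC, 26.2 to 59.5 CPM in PEM-HSC and then 62.7, 68 and 74 CPM in PLT-HSC (slope 1.45, SE 0.39, edgeR adjusted p = 0.319). Gpr65, a proton-sensing receptor of leukocytes, was at 76.3, 75.9, 60.3 and 76 CPM in MUL-HSC, 20.8 to 40.4 CPM in PEM-HSC and then 8.22, 0.558 and 19.4 CPM in PLT-HSC (slope -1.46, SE 0.34, edgeR adjusted p = 0.163). Snora70, a small nucleolar RNA, averaged 8.79, 4.4 and 2.49 CPM (edgeR adjusted p = 0.932). With Ctnnal1, Otos and Gm5111 these are the 6 genes in full order (0.0479%).

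Gene lists were read by the number of members in rising or falling order and by the median slope, beside 22.6% rising, 20.3% falling, 52.7% with a positive slope and a median slope of 0.02 over all tested genes. The share of all tested genes at an unadjusted p under 0.05 in edgeR was 3% with a positive slope and 2.77% with a negative one. Counts of list members at that threshold are to be read beside these shares. Their members and names were chosen with earlier results of these data known, so such counts carry no independent weight, and no list was tested. Calls by other tools are set beside those of edgeR, and along the score DESeq2 called 184 of 12536 genes (1.47%) and limma voom 20 (0.16%). Where a list's median slope moved by over 1.5 times or turned when a single library was left out, its lowest and highest such values are given with the library that was absent.

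Among HSC identity and self-renewal genes, 27 of 33 had a positive slope, 20 were in rising and 1 in falling order, and the median slope was 0.38, made of a median first step of 0.46 and a median second step of 0.27. Ctnnal1 was the 1 member that passed, while 11 had a positive and 0 a negative slope at an unadjusted p under 0.05 in edgeR. Mecom, a transcription factor of HSC maintenance, averaged 76.9, 134.2 and 202.5 CPM (edgeR adjusted p = 0.443), and Mycn 154, 380 and 441 CPM (adjusted p = 0.47). Summed over the list, MUL-HSC libraries ran from 3440 to 4610 CPM, PEM-HSC from 4700 to 5920 and PLT-HSC from 5270 to 7050, so MUL-HSC did not overlap the others while PEM-HSC and PLT-HSC did. As a mean log2 difference from the average library, PLT-HSC stood at 0.58, 0.35 and 0.48, PEM-HSC between -0.02 and 0.33, and MUL-HSC at -1.21, -0.63, -0.03 and -0.17. On that scale the groups were in order without overlap, though MUL-HSC replicate 3 lay next to the lowest PEM-HSC libraries.

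The list of aged HSC genes, known to be higher in HSCs of old mice, had 33 of 38 positive slopes, 26 in rising and 0 in falling order, with a median slope of 0.85. Their median first step was 1.19 and the second 0.43. Vwf was the 1 member that passed, while 19 had a positive and 0 a negative slope at an unadjusted p under 0.05 in edgeR. Prcp, a lysosomal carboxypeptidase, averaged 67.6, 138 and 193 CPM (edgeR adjusted p = 0.0908), and Gstm2, a glutathione transferase, 48.1, 170 and 274 CPM (adjusted p = 0.163). The list mean was lowest in MUL-HSC replicates 1 and 2, at -1.98 and -1.81 log2 units from the average library, and replicates 3 and 4 stood at -0.42 and -0.36. PLT-HSC replicate 3, at 0.16, lay within the PEM-HSC range of -0.05 to 1.06. Summed over the list, that library was at 3853 CPM. This lay within the MUL-HSC range of 1910 to 4670 CPM and below the PEM-HSC range of 3900 to 7890 CPM. Without both MUL-HSC replicates 1 and 2 the median slope was 0.50, with 33 of 38 positive.

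Multipotent progenitor genes ran the other way, with 13 of 15 negative slopes, 9 in falling and 1 in rising order, and a median slope of -0.88. Several were put on the list because they were already known to be lower here, so its direction carries no independent weight. The median first step was -1.21 and the second -0.13. Otos and Serpinb1a passed, while 8 members had a negative and 0 a positive slope at an unadjusted p under 0.05 in edgeR. Cd34, a surface protein of progenitors that mouse HSCs largely lack, averaged 375, 52.2 and 42.6 CPM (edgeR adjusted p = 0.116), and Cd27, a costimulatory receptor, 233, 135.5 and 105.5 CPM (adjusted p = 0.549). The median slope was -0.44 without MUL-HSC replicates 1 and 2 and, with 1 library left out, ran from -1.16 (PLT-HSC replicate 1) to -0.58 (MUL-HSC replicate 1).

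Interferon response genes had 42 of 48 positive slopes, 24 in rising and 2 in falling order, a median slope of 0.37 and median steps of 0.57 and 0.15. Phf11d passed. Rsad2, the antiviral enzyme viperin, averaged 20.2, 48.5 and 81.1 CPM (edgeR adjusted p = 0.298). MHC class II genes had 11 of 14 positive slopes but only 1 in rising order, with median steps of 0.77 and -0.21: H2-Eb1 averaged 102, 276 and 223 CPM. Of the MHC class II genes 0 passed in edgeR, DESeq2 or limma voom, and 2 had an unadjusted p under 0.05 in edgeR. Their median slope of 0.33 ran from 0.30 (MUL-HSC replicate 4 left out) to 0.52 (PLT-HSC replicate 3 left out).

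S phase and replication genes had 25 of 30 negative slopes, 19 in falling and 1 in rising order, with a median slope of -0.36 and median steps of -0.40 and -0.30. In edgeR 0 passed and 7 had an unadjusted p under 0.05, and DESeq2 and limma voom also called 0. Prim1, a DNA primase subunit, averaged 175, 107 and 67 CPM and Rrm1, a ribonucleotide reductase subunit, 257, 162 and 98.8 CPM (edgeR adjusted p = 0.609 and 0.611). Mitosis genes had 26 of 31 negative slopes and 14 in falling order, but their median steps were -0.03 and -0.63, so PEM-HSC did not sit midway. In the mitosis list 0 genes passed in edgeR and 1, Kif20a, a mitotic kinesin, had an unadjusted p under 0.05 (19.2, 10.3 and 4.31 CPM), with 0 called by DESeq2 or limma voom. The median slope of mitosis genes, -0.41 with all libraries, was -0.98 without PLT-HSC replicate 3. It was -0.15 and -0.23 when PLT-HSC replicate 1 or 2 was left out, -0.21 when MUL-HSC replicate 2 was, and -0.09 when MUL-HSC replicates 1 and 2 both were. For S phase genes the values were -0.74 with PLT-HSC replicate 3 left out and -0.18 with both MUL-HSC replicates 1 and 2 left out.

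**Figure D3:**
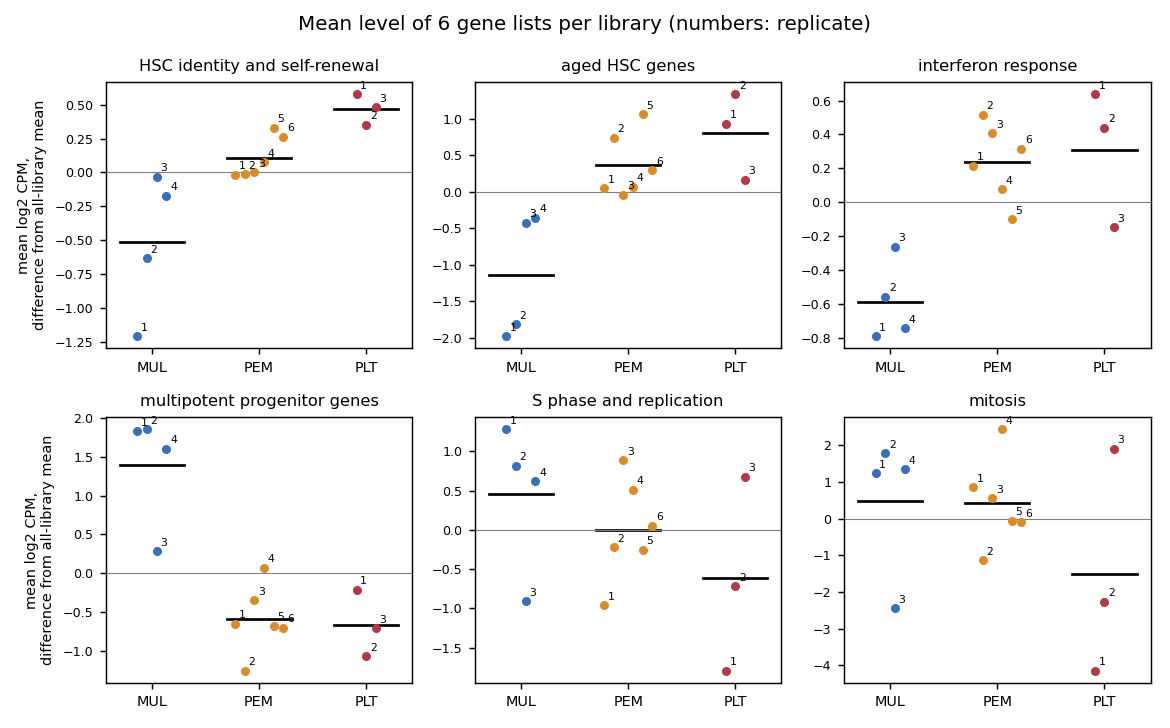
Mean log2 CPM of 6 gene lists in each library, as the difference from the mean of all 13 libraries (vertical axis, log2 units), with replicate numbers beside the points and a bar at the group mean. HSC identity, aged HSC and interferon lists are lowest in MUL-HSC, the multipotent progenitor list is highest in MUL-HSC, and PLT-HSC replicate 3 and MUL-HSC replicate 3 lie far from their groups in the mitosis panel.

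Lineage lists had median slopes nearer 0. The median first and second steps were 0.138 and -0.044 for platelet receptor and signalling genes and -0.091 and 0.239 for granule and cytoskeleton genes. For megakaryocyte and erythroid transcription factors they were 0.262 and 0.175. Megakaryocyte and platelet receptor and signalling genes had 15 of 25 positive slopes, 7 in rising and 6 in falling order and a median slope of 0.07, and Lat fell as above. Gp9, a subunit of the platelet receptor of von Willebrand factor, averaged 42.1, 71.1 and 75.2 CPM (edgeR adjusted p = 0.859). Platelet granule and cytoskeleton genes had 16 of 26 positive, 8 rising and 5 falling, with a median slope of 0.15. Vwf rose, while Pf4, a platelet chemokine, was at group means of 98.2, 60.7 and 39.6 CPM (edgeR adjusted p = 0.625) and Clu, clusterin, at 14.2, 197 and 379 CPM (adjusted p = 0.795). Megakaryocyte and erythroid transcription factors had 15 of 18 positive, 6 rising and 1 falling, a median slope of 0.26 (0.20 with genes at 0 in a whole group set to their bound), and Mef2c as the 1 member that passed. With 1 library left out, the receptor list ran from 0.01 (MUL-HSC replicate 2) to 0.19 (PLT-HSC replicate 1). The granule list ran from -0.05 (PLT-HSC replicate 3) to 0.17 (MUL-HSC replicate 4), so its sign rested on 1 library. The transcription factor list ran from 0.16 (PLT-HSC replicate 3) to 0.29 (PLT-HSC replicate 2). In the receptor, granule and transcription factor lists 2, 3 and 4 members had a positive slope at an unadjusted p under 0.05 in edgeR. Those with a negative slope numbered 1, 1 and 0.

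Erythroid priming genes had 12 of 14 positive slopes, 4 in rising and 0 in falling order and a median slope of 0.21 (0.18 at the bounds). Car2, carbonic anhydrase 2, averaged 4910, 6390 and 7270 CPM (edgeR adjusted p = 0.625). Granulocyte and monocyte priming genes had 10 of 17 positive with 4 rising and 3 falling (median 0.16, or 0.14 at the bounds). In the erythroid and the granulocyte and monocyte lists 0 members passed in edgeR, with 2 and 0 at an unadjusted p under 0.05 and 0 by DESeq2 or limma voom. Lymphoid priming genes had 11 of 16 positive with 5 rising and 3 falling (median 0.12), and Mef2c, which is on this list too, was the 1 member that passed. In the lymphoid list 2 members had a positive and 1 a negative slope at an unadjusted p under 0.05 in edgeR. Leaving out single libraries, the erythroid median ran from 0.15 (MUL-HSC replicate 2) to 0.34 (PLT-HSC replicate 2) and the granulocyte and monocyte median from 0.04 (PLT-HSC replicate 2) to 0.27 (PLT-HSC replicate 3). The lymphoid median ran from -0.005 (PLT-HSC replicate 2) to 0.20 (PLT-HSC replicate 1) and so turned in sign. Median first and second steps were 0.445 and 0.065 in the erythroid list and 0.252 and 0.029 in the granulocyte and monocyte list. In the lymphoid list they were 0.21 and -0.103.

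Signalling lists had median slopes of 0.10 to 0.17, but in several the median steps were uneven. The median first and second steps were -0.033 and 0.379 for thrombopoietin, JAK and STAT genes and 0.625 and 0.104 for the retinoic acid pathway. They were 0.019 and 0.368 for TGF-beta and BMP genes, 0.233 and 0.34 for Notch and Wnt genes and 0.103 and 0.273 for adhesion genes. Thrombopoietin, JAK and STAT genes had 19 of 24 positive slopes, 6 in rising and 1 in falling order (median slope 0.17). The retinoic acid pathway had 10 of 14 positive, 6 rising and 2 falling (median 0.10), with Rdh10 and then Aldh1a1, a retinaldehyde dehydrogenase, next in rank at 141, 189 and 273 CPM (edgeR adjusted p = 0.648). TGF-beta and BMP genes had 17 of 25 positive, 8 rising and 3 falling (median 0.15). Tgfbr3, the co-receptor betaglycan, averaged 24.8, 56.1 and 81.1 CPM with PLT-HSC and MUL-HSC libraries apart (edgeR adjusted p = 0.169). Notch and Wnt genes had 15 of 19 positive, 5 rising and 4 falling (median 0.10), and adhesion and niche retention genes 21 of 27 positive, 8 rising and 3 falling (median 0.10). In these 5 lists 0 members passed in edgeR. At an unadjusted p under 0.05 the members with a positive slope numbered 4, 2, 3, 2 and 4 in the order given, and those with a negative slope 2, both in the adhesion list. DESeq2 called 2, 1, 1, 1 and 2 members in the same order and limma voom 0 in each. These medians moved with single libraries. With PLT-HSC replicate 3 left out, that of the Notch and Wnt list turned to -0.13, and it was 0.29 with PLT-HSC replicate 2 left out. The thrombopoietin list ran from 0.05 (PLT-HSC replicate 3) to 0.26 (MUL-HSC replicate 4), and the retinoic acid list from 0.01 (MUL-HSC replicate 3) to 0.35 (MUL-HSC replicate 4). The TGF-beta and BMP list ran from 0.05 (PLT-HSC replicate 3) to 0.24 (PLT-HSC replicate 2), and the adhesion list from 0.08 (MUL-HSC replicate 2) to 0.20 (PLT-HSC replicate 3).

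The remaining lists were mixed. Median first and second steps were 0.018 and -0.038 for quiescence genes and 0.185 and 0.496 for immediate early genes. For metallothionein, glutathione and antioxidant genes they were 0.069 and 0.08. Quiescence genes and cell cycle inhibitors had 15 of 26 positive slopes, 6 in rising and 6 in falling order (median 0.06). Cdkn1c, the inhibitor p57, was at 32.8, 31.1, 40.4 and 30.4 CPM in MUL-HSC, 52.6 to 98.9 CPM in PEM-HSC and then 147, 141 and 45 CPM in PLT-HSC (edgeR adjusted p = 0.161), so that PLT-HSC replicate 3 lay below all PEM-HSC libraries. Immediate early genes had 16 of 20 positive, 8 rising and 3 falling (median 0.32), yet Myc, a growth regulator, averaged 459, 321 and 232 CPM (edgeR adjusted p = 0.493). NF-kB and inflammatory genes had 12 of 20 positive, 5 rising and 6 falling (median slope 0.22, median steps -0.06 and -0.05). Metallothionein, glutathione and antioxidant genes had 14 of 30 positive, 11 rising and 10 falling (median -0.01). In these 4 lists 0 members passed in edgeR. At an unadjusted p under 0.05, 4 quiescence, 2 NF-kB and 6 metallothionein, glutathione and antioxidant genes had a positive slope, and 1 immediate early and 2 NF-kB genes a negative one. DESeq2 called 1 quiescence gene and 2 metallothionein, glutathione and antioxidant genes, and limma voom 0 in each list. The immediate early median turned to -0.19 with PLT-HSC replicate 1 left out and was 0.46 with PLT-HSC replicate 2 left out. The quiescence median ran from -0.10 (PLT-HSC replicate 1) to 0.09 (PLT-HSC replicate 2), and the metallothionein median from -0.05 (PLT-HSC replicate 2) to 0.05 (PLT-HSC replicate 3). The NF-kB median ran from 0.10 (MUL-HSC replicate 2) to 0.37 (MUL-HSC replicate 4).

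**Figure D4:**
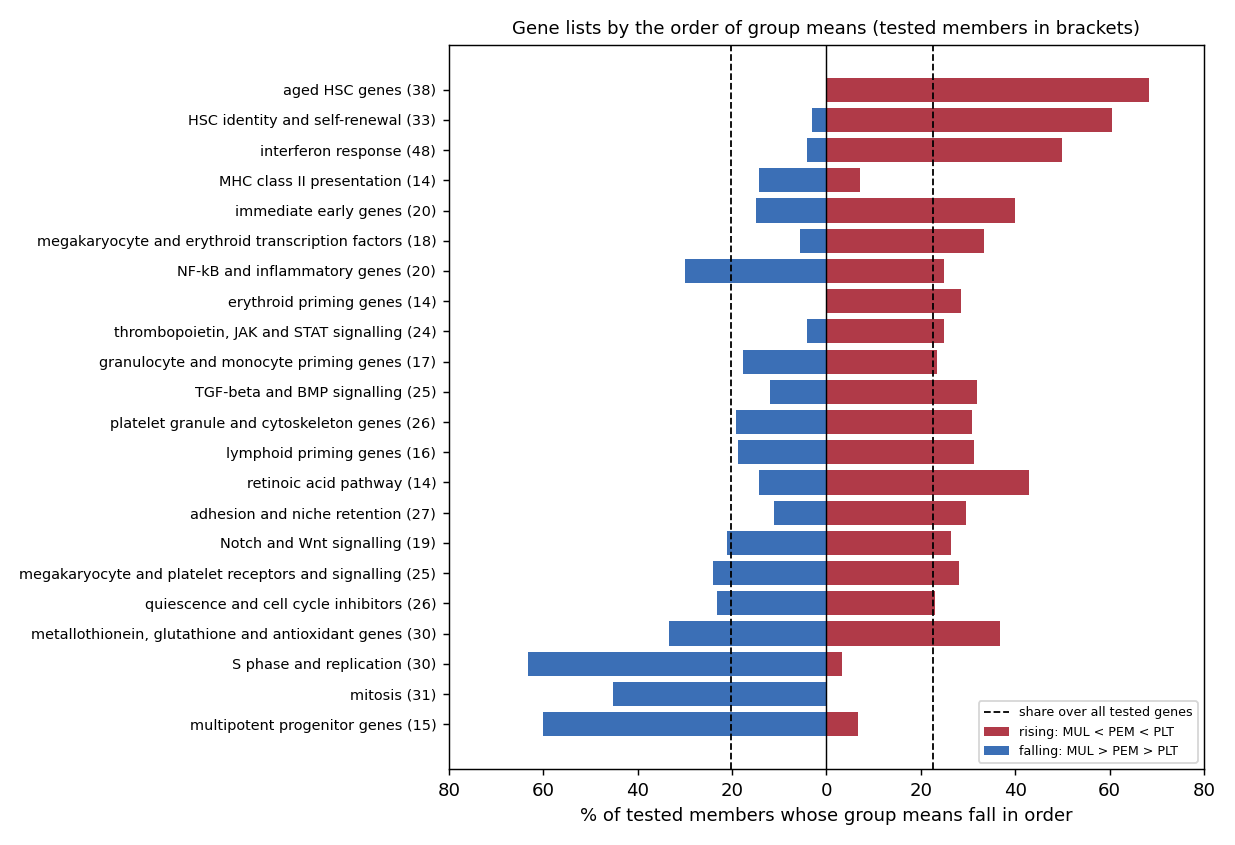
Share of each list's tested members (number in brackets) whose group means rise from MUL-HSC through PEM-HSC to PLT-HSC (red, to the right) or fall in that order (blue, to the left), in percent, with dashed lines at the shares over all tested genes (22.6% and 20.3%). Aged HSC genes reach furthest to the right, with 26 of 38, and S phase genes furthest to the left, with 19 of 30.

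Markers of other cell types were summed per library as a check on the sort. HSC markers had 7 of 8 positive slopes (median 0.67) and summed to 643 to 1230 CPM in MUL-HSC; PEM-HSC reached 1020 to 1550 and PLT-HSC 1190 to 1920. Macrophage markers summed to 51.6 to 74.1 CPM in MUL-HSC, below all other libraries, with PEM-HSC at 108 to 408 CPM and PLT-HSC at 76.1 to 294 CPM. Of these markers 8 of 10 had positive slopes, but 3 of the 10 were in rising and 1 in falling order, with median steps of 2.11 and -0.45. By mean log2 CPM of the list the groups overlapped, with MUL-HSC replicate 1 at 1.835 and PLT-HSC replicate 3 at 1.015. Cd68, a lysosomal protein of phagocytes, averaged 14.1, 79.5 and 128 CPM (edgeR adjusted p = 0.298). Phf11d was also lowest in MUL-HSC, as was the interferon list by mean log2 CPM. By summed CPM the groups overlapped in the interferon list. Its sum in PLT-HSC replicate 3, 10510 CPM, lay below every MUL-HSC library (lowest 11250, highest 14740). The part of macrophage RNA in the values of Phf11d and the interferon list was not tested. Neutrophil markers summed to at most 16 CPM in any library, with 3 of 4 positive slopes.

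B and plasma cell markers summed to 100 to 168, 98.7 to 183 and 94.4 to 173 CPM in MUL-HSC, PEM-HSC and PLT-HSC, with 2 of 4 positive and Ms4a1 and Pax5 at 0. T and NK markers summed to 116 to 232, 92.1 to 370 and 148 to 380 CPM, with 1 of 2 positive and Cd3e, Cd3d, Cd4, Cd8a and Ncr1 at 0. Of these Klrb1c, an NK receptor gene, was at 0, 0, 30.9 and 0.0462 CPM in MUL-HSC and 24.7 CPM or more in every other library. Mast and basophil markers summed to 91.2 to 133, 68 to 143 and 91.8 to 165 CPM (1 of 2 positive; Mcpt8, Fcer1a, Prss34 and Cma1 at 0), where Cpa3, a mast cell protease, was at 48.3, 39, 4.4 and 13.4 CPM in MUL-HSC, at most 16 in PEM-HSC and 0 in PLT-HSC. Erythroblast markers summed to 21.3 to 55.7, 10.4 to 85.9 and 54.6 to 84.7 CPM, with 3 of 3 positive and Hba-a1, Hbb-b1 and Slc4a1 at 0. Megakaryocyte markers summed to 711 to 1020, 552 to 1230 and 718 to 1010 CPM, with 3 of 7 positive, and did not follow the order. Endothelial and stromal markers summed to 79.2 to 202, 45.1 to 104 and 75.7 to 112 CPM, with 2 of 3 positive and Cdh5 at 0.

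The number of called genes depended on single libraries. Leaving out any 1 of the 4 MUL-HSC libraries, PLT-HSC replicate 1 or PLT-HSC replicate 2 left 0 called genes in edgeR, with 552 to 964 at an unadjusted p under 0.05. Without PLT-HSC replicate 3 there were 29, including all 11, and without PEM-HSC replicate 1 there were 5. The slopes kept their sign. Leaving out 1 library, that of Vwf ran from 1.75 to 2.17, that of Ctnnal1 from 1.33 to 1.59, that of Mef2c from 0.62 to 0.74 and that of Otos from -1.32 to -1.02. None of the 11 changed sign in any of the settings tried. With the mean of the mitosis genes as a covariate, 4 of the 11 passed, namely Otos, Serpinb1a, Ramp1 and Gm5111. All 6 rising genes lost their call there, as did Lat.

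**Figure D5:**
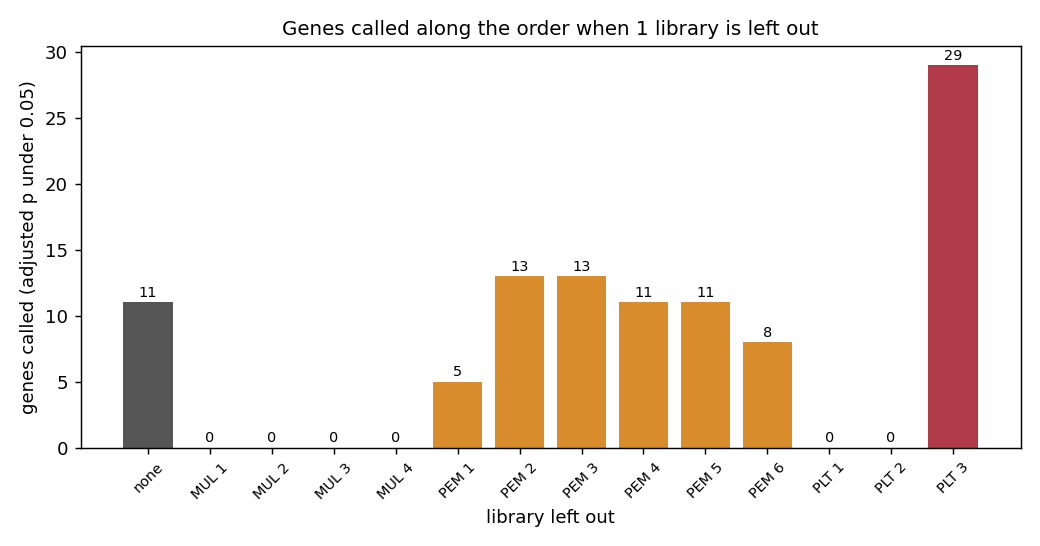
Number of genes called along the order (edgeR adjusted p under 0.05, vertical axis from 0) with all 13 libraries (none) and with each library left out in turn, coloured by group. The count is 11 with all libraries, 0 without any MUL-HSC library or PLT-HSC replicate 1 or 2, 5 to 13 without a PEM-HSC library and 29 without PLT-HSC replicate 3.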

How the data were processed

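Per the labels' protocols, cDNA came from polyadenylated RNA of 100 sorted cells by Smart-seq+, and libraries from Nextera XT. The submitters' processing notes name STAR, featureCounts, Trimmomatic and FastQC, and build mm9. Software versions and settings, the annotation and the strand mode are not given in the sources used here. Raw counts were deposited for 24015 gene symbols and 92 spike-in rows, not normalized by the authors. Counts include PCR copies, so floors cover counting error only, and reads of overlapping, antisense or near-identical genes may have been shared.

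Spike-in rows were removed and groups taken from the labels. Genes were kept with filterByExpr (12536), libraries scaled by TMM, and edgeR 4.0.16 in R 4.3.3 fitted a robust quasi-likelihood model with the score (0, 1, 2) as 1 term; a fit with a term per group gave the single steps, PLT-HSC against MUL-HSC, and the departure from even steps. A gene was called at a Benjamini-Hochberg adjusted p under 0.05 over all genes tested. Group means for the order were of log2 CPM with a prior count of 2. Alternatives were 2 scalings, 2 filters, other tests (DESeq2 1.42.0, limma voom 3.58.1), score spacings, covariates, a replicate block, group medians and left-out libraries. Replicates differed by more than sampling noise, with a chi-square per degree of freedom of 163 or more in every pair.

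The members and lists were chosen with earlier results of these data known. Named genes were up to 12 called per direction by p, filled to 8 from genes with PEM-HSC between, without gene models such as Gm5111, which is named because the count is small. Added were up to 5 fully ordered genes per direction and, per list, up to 4 called members or the 2 of smallest p; other list members and the marking of CG pairs were chosen after values were seen. List means per library are means of log2 CPM. Some list members are not reported here by name. Printed windows that overlap a GENCODE M21 exon were skipped, a rule added after seeing the sequences, so the next gene was taken in place of Ppp4r4. The model was tested on simulated counts for this trend (12153 genes tested, 50 changed per fold size): end-to-end changes of 2-, 4-, 8- and 16-fold were called in 6%, 50%, 80% and 90%, and 6 of 119 called genes had not been changed. Changed genes were drawn only from those above a minimum level. With 119 calls an adjusted p under 0.05 allows a larger unadjusted p than with the 11 calls of the data. The rates are therefore higher than those that apply to the data.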

Additional observations from a re-analysis of the deposited data

Results flagged for a closer look

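Single libraries that stood far from the rest of their group by Dixon's ratio are given here as values. Of 194 groups of values examined, 26 were singled out. Chance does so in about 1 of 20 groups only where values are normally distributed, which CPM values need not be. In several genes the other libraries of the group held no counts, which alone singles out the remaining library. Whether 26 exceeds chance therefore cannot be judged. The libraries given are of MUL-HSC and PEM-HSC, since PLT-HSC has too few libraries for the ratio.

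Among genes that rose or fell along the order, Serpinb1a was high in PEM-HSC replicate 4, at 189 CPM with the next library at 84.2, and Ramp1 was low in PEM-HSC replicate 2, at 271 CPM with the next at 500. MUL-HSC replicate 3 accounted for many of the others. It was high in Mllt3 (310 CPM, next 162), Neo1 (43.1 CPM, next 8.16), Cd68 (19.7 CPM, next 12.5), Klrb1c (30.9 CPM, next 0.0462) and Kdr (1.83 CPM, all others 0), and low in Gpr65 (60.3 CPM, next 75.9). Its list mean in log2 CPM was the lowest of its group for multipotent progenitor genes (4.7, next 6.03) and mitosis (1.02, next 4.71) and the highest for T and NK markers (6.3, next 1.93).

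MUL-HSC replicate 2 was high in Ctla2a (3980 CPM, next 1370), Sfrp1 (2.34 CPM, all others 0) and Car1 (0.202 CPM, all others 0), and MUL-HSC replicate 4 in Myc (612 CPM, next 419). MUL-HSC replicate 1 had the lowest list mean of its group for NF-kB and inflammatory genes (2.32 log2 CPM, next 3.61) and immediate early genes (2.64, next 5.56).

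In PEM-HSC, replicate 2 was high in Rgs9 (0.044 CPM, all others 0), Ngp (9.46 CPM, all others 0), Cd79a (0.88 CPM, all others 0) and the mean of B and plasma cell markers (2.87 log2 CPM, next 0.313). Replicate 4 was high in Fcer1g (67.5 CPM, next 34.5) and Ly86 (3.45 CPM, all others 0). Cd68 was high in replicate 3 (237 CPM, next 80.3), Car1 in replicate 1 (59.9 CPM, next 3.06), and the mean of metallothionein, glutathione and antioxidant genes in replicate 5 (7.75 log2 CPM, next 7.48).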

How the results depend on the processing

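With all libraries 6 genes rose, 5 fell and 11 were called with PEM-HSC between, 0 departed from even steps, and 1 and 0 were called for the first and second step. In that order the counts were 140, 44, 137, 150, 177 and 115 with DESeq2, which held all 11 genes, and limma voom, which held 9 of them and not Ppp4r4 or Phf11d, called 10 rising, 10 falling and 20 in between, with 1 at the second step. Scores of 0, 1 and 3 left 0 rising, 0 falling and 0 in between (671 at an unadjusted p under 0.05 in edgeR), and scores of 0, 2 and 3 gave 10 rising genes. A term per group, tested from end to end, gave 1 falling and 6 in between. With detected genes as a covariate there were 1 rising, 0 falling, 1 in between (Mef2c) and 0 at the first step, and with the mitosis mean as a covariate 1 rising, 6 in between and 6 at the first step. The mitosis covariate kept 4 of the 11 (Otos, Serpinb1a, Ramp1 and Gm5111) and left all 6 rising genes and Lat uncalled. The cause was not tested for any of these.

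Over 10 pairs of libraries with the same replicate number, deviations from the group means correlated at -0.317 to 0.131, 3 of them over 0.1. Pairs with unlike numbers were not set beside these, so whether the numbers pair the libraries cannot be judged. With the replicate number as a block there were 1 rising gene (Ppp4r4), 0 falling, 1 in between and 0 at the first step.

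Leaving out 1 library, rising genes ran from 0 to 20, falling from 0 to 9, in between from 0 to 29, departures from 0 to 1, the first step from 0 to 4 and the second from 0 to 2. The trend counts were 0 when any of the 4 MUL-HSC libraries was left out, and when PLT-HSC replicate 1 or 2 was. They were 5 in between when PEM-HSC replicate 1 was left out, and highest when PLT-HSC replicate 3 was. The first step gave 4 with replicate 3 of either MUL-HSC or PLT-HSC left out and 2 with PEM-HSC replicate 2 or 3 left out. It gave 0 with MUL-HSC replicate 1, 2 or 4 left out, with PEM-HSC replicate 5 left out and with PLT-HSC replicate 2 left out. Without both MUL-HSC replicates 1 and 2 there were 0 rising, 0 falling, 0 in between and 1 departure, with 469 genes at an unadjusted p under 0.05 in edgeR.

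Slopes turned for S100a9 (-1.50 with scores of 0, 1 and 3 and -2.26 without both MUL-HSC replicates 1 and 2, from 2.60) and Ngp (0.50 with the detected genes covariate, from -0.80), both under 10 CPM. RLE size factors, total-count scaling, both filters, the fit without robust estimation and group medians gave 10 to 12 genes. Scaling by RLE or total counts turned no list's median slope. Apart from the cell type marker lists, leaving out 1 library turned 6, those of the immediate early, quiescence, Notch and Wnt, platelet granule, lymphoid and metallothionein lists. Limma voom turned the quiescence (-0.07), platelet receptor (-0.01) and metallothionein (0.004) medians. The detected genes covariate turned NF-kB (-0.04) and metallothionein (0.05), the mitosis covariate quiescence (-0.08), and the absence of both MUL-HSC replicates 1 and 2 NF-kB (-0.03) and metallothionein (0.08). Depth limits genes at a few counts. By the simulation, which had even steps only, the spread between libraries limits changes of 4-fold or less, and larger ones too at the number of calls made here.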
